A study of Mus musculus with 6 samples.

Results

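The 35 genes described here encode proteins that fold, modify and ship secreted proteins in the endoplasmic reticulum (ER), with the enzymes and chaperones that handle collagen. The members were chosen by gene symbol and role, with no threshold on measured values but with earlier results of these data known. All 35 were found in each of the 6 count tables, out of 42625 gene symbols over all libraries. They comprise 9 luminal chaperones and cofactors, 2 lectin chaperones, 4 protein disulfide isomerases, 3 collagen prolyl 4-hydroxylase alpha subunits, 9 collagen chaperones, prolyl 3-hydroxylases and prolyl isomerases, 6 genes of translocation, export and retrieval, and 2 transcription factors.

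Proteins bound for secretion enter the ER through the Sec61 channel and are folded there by HSP70 and HSP90 type chaperones, by lectin chaperones that read N-glycans, and by disulfide isomerases. Procollagen needs further steps: prolyl 4-hydroxylases stabilize the triple helix, HSP47 (the product of Serpinh1) binds the folded helix, and the large cargo leaves in COPII carriers with the help of Mia3 (TANGO1). When unfolded proteins accumulate, the sensors ATF6, IRE1 and PERK start the unfolded protein response, whose transcription factors include XBP1. Fibroblasts (FBs) of fibrotic lung and antibody-secreting plasma cells are both cells with a heavy secretory load.

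The study asked how Pdgfra+ lung FBs differ between normal and fibrotic mouse lung, using droplet single-cell RNA sequencing of 3′ transcript ends, with 1 library per condition, each pooled from 3 mice. GFP+ cells were sorted from lungs of adult male Pdgfra-GFP reporter mice on day 14 after a single oropharyngeal dose of PBS (50 ul) or bleomycin, a DNA-damaging agent that induces pulmonary fibrosis. The bleomycin dose is given as 2 U/kg in the protocol and 4 U/kg in the treatment field. In the repetitive experiment, PDGFRa-EGFP mice received 3 weekly doses of PBS or of bleomycin, the first and second at 1 U/kg and the last at 0.5 U/kg, and GFP+ cells were collected 2 weeks after the last one. In the organoids, called normal or fibrogenic after their FBs, tomato+ type 2 alveolar epithelial cells (AEC2s) of tamoxifen-induced SpcCreER donors were cultured for 2 weeks with GFP+ FBs of mice given PBS or bleomycin (2 U/kg). GFP follows Pdgfra, so cells that do not use this gene are in the lung libraries only as far as they passed the sort.

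The libraries held 1060 and 1015 barcodes (single-dose PBS and bleomycin), 6139 and 10737 barcodes (repetitive PBS and bleomycin) and 5441 and 8894 barcodes (normal and fibrogenic organoids), with 7196200 to 238618743 unique molecular identifiers (UMIs) in all. The median barcode had 10178 UMIs after repetitive PBS but 2478 UMIs after repetitive bleomycin, and 36841 UMIs in normal but 4289.5 UMIs in fibrogenic organoids. At most 30 barcodes were shared by any pair of libraries. Of the barcodes, 884, 779, 5399, 8196, 2027 and 4749 were taken as FBs in this order of libraries, and all 6 FB markers (Pdgfra, Col1a1, Col1a2, Col3a1, Dcn, Mfap4) were detected in each of these groups. As clusters were called FB from these same markers, their detection is no separate support for the identity of the cells. Pdgfra itself, the gene of the sort, had 77.2 and 71.4 CPM in normal and fibrogenic organoid FBs after culture, and lay between 288 and 586 CPM in lung FBs.

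Some clusters within these groups were led by genes of other cell types. Among the FBs they held 1619 of the 8196 repetitive bleomycin cells and 53 of the 5399 PBS cells, of which a single cluster held 1565 and 29 cells (median 1118 UMIs), with leading genes that include Sftpc, the surfactant gene of type 2 epithelium. Among organoid FBs, 2 clusters led by epithelial genes held 686 of the 4749 fibrogenic and 15 of the 2027 normal cells. Comparisons that rest on these groups are also given without those clusters, an alternative chosen after seeing the data. Organoid FB cluster T (34 fibrogenic and 2 normal cells) was kept, though its leading genes, mostly histones, include the epithelial Sftpa1 and Napsa. Of the single-dose FBs, 0 cells were set aside in this way. Yet the leading genes of single-dose cluster C (238 PBS cells) include the neutrophil markers S100a8 and S100a9. Those of cluster D (230 PBS cells) include Scgb1a1, which also leads the epithelial cluster of that experiment. The single-dose comparison was not run without these clusters.

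The level of a gene in a group of cells is its summed UMI count per 1000000 UMIs of that group (CPM). A level in CPM says nothing of how much RNA a cell holds. As 3′ counts depend on each transcript, levels are compared for 1 gene between groups, not between genes, and ratios only within an experiment. With 1 library per condition no test between conditions was possible: every interval given below is a 95% interval for counting error, and the spread between mice is unknown. A gene is called higher or lower where its ratio, after adding 1 CPM to both levels, was at least 1.5-fold, among genes with at least 20 UMIs over both groups. Ratios printed below are without the added CPM.

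Promoters are shown first, to give the members whose sequence near the start of the gene holds elements of the unfolded protein response. Windows of 300 bases around the start of the gene (RefSeq, GRCm38.p6) were found for 30 of the 35 members, which excludes Hyou1, Manf, Fkbp10, Kdelr2 and Creb3l1. They were searched on both strands for the ER stress response element (ERSE: CCAAT, 9 bases of any kind, CCACG), for ERSE-II (ATTGG, 1 base of any kind, CCACG) and for the core of the unfolded protein response element (UPRE: TGACGTG). ERSE was present in 7 of 30 members (23.3%) and in 37 of 27018 genes (0.137%). ERSE-II was present in 1 member, Dnajb11 (3.33%), and in 12 genes (0.0444%). The UPRE core was present in 5 members (16.7%) and in 601 genes (2.22%). As the members were chosen by role in the ER, these shares describe the list and do not test it. The members with ERSE were Hspa5, Hsp90b1, Dnajc3, Creld2, Calr, Canx and Pdia6, all general chaperones or isomerases. The UPRE core was found in Hspa5, Sec23a, Sec24d, Mia3 and Kdelr3, of which the last 4 serve export and retrieval. Neither these elements nor ERSE-II were matched in the windows of the remaining members, which says only that these letters are not in these windows. Those members were the general chaperones and isomerases Dnajb9, Sdf2l1, Pdia3, Pdia4 and P4hb, the collagen-directed P4ha1, P4ha2, P4ha3, Serpinh1, Fkbp7, Fkbp9, Fkbp14, Crtap, P3h1, P3h3 and Ppib, and Sec61b and Xbp1. The matched stretches, with 10 bases on either side, follow in the direction of the gene, with the matches in capitals. On the reverse strand an ERSE reads CGTGG, 9 bases, ATTGG, and a UPRE core reads CACGTCA. The matches in Hspa5 and those in Hsp90b1 do not overlap.
Hspa5, chr2:34771923-34772053, plus strand: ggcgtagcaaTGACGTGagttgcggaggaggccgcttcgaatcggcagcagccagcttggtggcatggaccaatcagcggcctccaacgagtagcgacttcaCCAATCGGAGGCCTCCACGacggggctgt
Hsp90b1, chr10:86705523-86705666, minus strand: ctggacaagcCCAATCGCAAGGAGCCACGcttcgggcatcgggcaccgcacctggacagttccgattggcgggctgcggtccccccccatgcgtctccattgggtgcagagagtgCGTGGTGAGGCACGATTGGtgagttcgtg
Dnajc3, chr14:118937817-118937855, plus strand: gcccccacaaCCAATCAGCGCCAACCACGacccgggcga
Creld2, chr15:88819510-88819548, plus strand: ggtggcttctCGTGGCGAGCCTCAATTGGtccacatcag
Calr, chr8:84847065-84847103, minus strand: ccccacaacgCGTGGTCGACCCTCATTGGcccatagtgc
Canx, chr11:50325790-50325828, minus strand: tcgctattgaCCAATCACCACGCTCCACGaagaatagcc
Pdia6, chr12:17266481-17266519, plus strand: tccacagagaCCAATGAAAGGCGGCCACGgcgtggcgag
Dnajb11, chr16:22857842-22857872, plus strand: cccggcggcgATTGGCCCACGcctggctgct
Sec23a, chr12:59011995-59012021, minus strand: tcctccccttTGACGTGgcagaggcgg
Sec24d, chr3:123267460-123267486, plus strand: cccgggcgccTGACGTGgcactagcaa
Mia3, chr1:183369635-183369661, minus strand: gagcccttgcTGACGTGtcactcgcag
Kdelr3, chr15:79516369-79516395, plus strand: gccgccccgcCACGTCAccgcgcggcc

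To ask how the folding genes of lung FBs differ after bleomycin, FBs of each bleomycin library were compared with those of its PBS library. The 35 members together took 0.882% of FB UMIs after a single dose of bleomycin and 0.613% after PBS. After repetitive dosing they took 0.940% and 0.646%. In the single-dose experiment 13 of 35 members were higher and 0 lower, where 18.8% of the 12045 genes compared were higher and 10.3% lower. In the repetitive experiment 15 members were higher and 0 lower, against 12.3% and 5.08% of 17243 genes. As the members were chosen with earlier results of these data known, these counts are a description and not independent support. The median log2 ratio of the members was 0.43 in both experiments, and that of all genes 0.086 and 0.099. The 10 members higher in both were Hsp90b1, Calr, P4hb, P4ha2, P4ha3, Serpinh1, Fkbp10, Crtap, P3h1 and Kdelr3. Another 3 (Canx, Sec61b, Sec24d) passed 1.5-fold after the single dose and 5 (Dnajb11, Pdia3, Sdf2l1, Pdia6, Pdia4) after repetitive doses, and whether these members differ between the experiments was not tested. How many of all genes were shared in this way was not counted, so it is unknown whether the members overlap more than other genes. Centred on the median gene, 9 members were higher and 1 (Fkbp9) lower after the single dose, against 15.9% and 12.9% of all genes, and 9 were higher and 0 lower after repetitive doses, against 9.74% and 6.68%. Centring ended the calls of Hsp90b1, Canx, Crtap and Sec24d after the single dose, and those of Crtap, Sdf2l1 and the disulfide isomerases P4hb, Pdia3, Pdia4 and Pdia6 after repetitive doses. Without the clusters led by genes of other cell types, 15 members were higher and 0 lower after repetitive doses, against 12.0% and 5.23% of all genes.

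**Figure D1:**
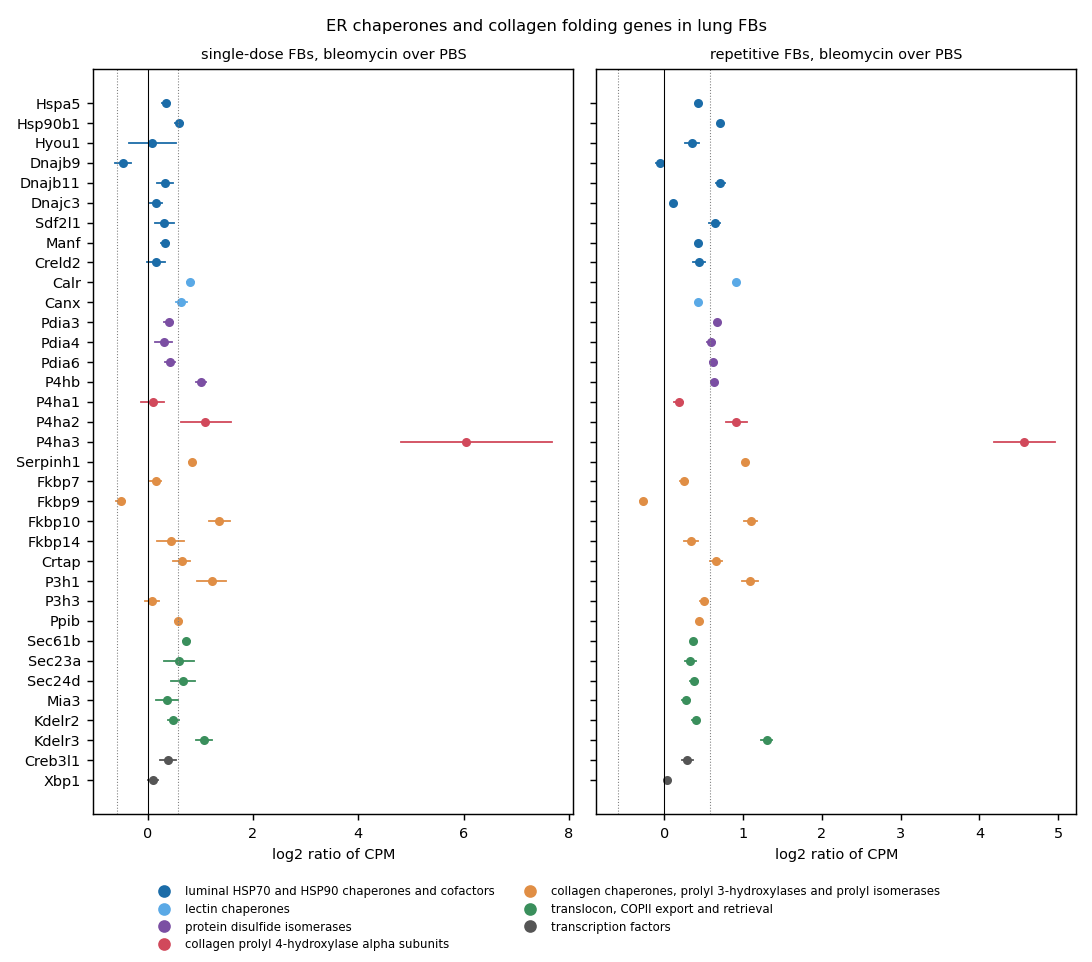
Log2 ratio of CPM (x axis) of each of the 35 members (y axis, coloured by role), bleomycin over PBS, in FBs of the single-dose (left) and repetitive (right) experiment. Points are ratios of summed counts without an added CPM, lines are 95% counting intervals and dotted lines mark 1.5-fold. P4ha3 lies far to the right in both panels and Fkbp9 is the lowest member in both.

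The collagen prolyl 4-hydroxylases hydroxylate proline in collagen chains, and their alpha subunits carry the catalytic site. P4ha3 had 550 UMIs (54.9 CPM) in single-dose bleomycin FBs and 5 UMIs (0.833 CPM) in PBS FBs, a ratio of 65.9-fold (28.1 to 204). It had 1422 UMIs (24.4 CPM) in repetitive bleomycin FBs and 61 UMIs (1.04 CPM) in PBS FBs, a ratio of 23.6-fold (18.2 to 31.0). Both PBS libraries were near 1 CPM, and the counting intervals of PBS and bleomycin levels did not overlap in either experiment. P4ha3 was detected in 30.3% of single-dose bleomycin FBs and 10.1% of repetitive bleomycin FBs, and in 0.452% and 1.00% of the respective PBS FBs. Detection depends on depth, which was unequal. The median was 11799 UMIs in single-dose bleomycin and 6887 UMIs in PBS FBs, and 2879 and 10533 UMIs in the repetitive libraries. P4ha2 was 17.5 against 8.16 CPM, a ratio of 2.14 (1.55 to 3.00), after the single dose and 23.6 against 12.5 CPM, a ratio of 1.88 (1.72 to 2.06), after repetitive doses. P4ha1 differed little, with 50.7 against 47.5 CPM and 93.7 against 82.5 CPM. Of the 3 alpha subunits, P4ha3 had the highest ratio and P4ha1 the lowest in both experiments. P4hb, the disulfide isomerase that is also the beta subunit of this enzyme, was 359 against 178 CPM, a ratio of 2.01 (1.88 to 2.16), and 261 against 169 CPM, a ratio of 1.55 (1.51 to 1.59).

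Serpinh1, the collagen-specific chaperone HSP47, was 1616 against 905 CPM, a ratio of 1.79 (1.73 to 1.84), in the single-dose experiment and 1009.7 against 495 CPM, a ratio of 2.04 (2.01 to 2.07), in the repetitive experiment. Fkbp10, a prolyl isomerase of collagen folding (FKBP65), was 108 against 42.3 CPM, a ratio of 2.56 (2.23 to 2.95), and 69.1 against 32.3 CPM, a ratio of 2.13 (2.02 to 2.26). P3h1, the prolyl 3-hydroxylase, was 53.0 against 22.8 CPM, a ratio of 2.32 (1.92 to 2.82), and 44.4 against 20.9 CPM, a ratio of 2.13 (1.99 to 2.28). All 3 were thus past 1.5-fold in both bleomycin libraries. Crtap, the cartilage-associated protein that forms a complex with P3h1 and cyclophilin B, was 110.2 against 70.5 CPM and 58.6 against 37.2 CPM, and Ppib, which encodes cyclophilin B, was 621 against 414 CPM and 678 against 500.0 CPM. Crtap passed 1.5-fold in both experiments and Ppib in neither, though its single-dose ratio lay at the limit. The related P3h3 was 128 against 120.5 CPM and 130.1 against 91.6 CPM. Of the other FK506-binding proteins of the ER, Fkbp14 was 40.4 against 29.8 CPM and 37.0 against 29.3 CPM, and Fkbp7 was 203 against 182 CPM and 119.5 against 100.4 CPM. Fkbp9 was below its PBS level in both experiments by less than 1.5-fold, with 233 against 333 CPM, a ratio of 0.701 (0.660 to 0.744), and 193 against 233 CPM, a ratio of 0.828 (0.808 to 0.849). Its ratio was the lowest of all 35 members in both.

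Hspa5 (BiP), the HSP70 of the ER, was 484 against 381 CPM, a ratio of 1.27 (1.21 to 1.33), and 1060.0 against 786 CPM, a ratio of 1.35 (1.33 to 1.37). Hsp90b1 (GRP94), the HSP90 of the ER, was 518 against 342 CPM and 1061 against 651 CPM, and passed 1.5-fold in both. Among the J-domain cofactors of BiP, Dnajb11 was 112 against 88.5 CPM and 125 against 76.5 CPM, and Dnajc3 was 190.1 against 171 CPM and 394 against 365 CPM. The J-domain gene Dnajb9 was the second lowest member in both experiments, at 80.9 against 112 CPM, a ratio of 0.725 (0.653 to 0.804), and 88.1 against 91.5 CPM, a ratio of 0.963 (0.927 to 1.00). Sdf2l1, which acts in complex with Dnajb11, was 78.1 against 62.8 CPM and 79.1 against 50.9 CPM. Hyou1, a nucleotide exchange factor of BiP, had 68 UMIs in single-dose PBS FBs and was 12.0 against 11.3 CPM, a ratio of 1.06 (0.778 to 1.44), and 38.8 against 30.4 CPM. It was the third lowest member after the single dose. The secreted ER stress proteins Manf and Creld2 were 413 against 330.2 CPM and 381 against 283 CPM for Manf, and 83.1 against 74.6 CPM and 51.9 against 38.2 CPM for Creld2. Of these 9 genes, 1 was higher after the single dose and 3 after repetitive doses, where 18.8% and 12.3% of all genes were.

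Calr (calreticulin), a lectin chaperone of the lumen, was 628 against 358 CPM, a ratio of 1.75 (1.67 to 1.84), and 762 against 406 CPM, a ratio of 1.88 (1.85 to 1.91), which placed it among the higher members in both experiments. Its membrane-bound counterpart Canx (calnexin) was 257 against 165 CPM and 321 against 238 CPM. Of the disulfide isomerases, Pdia3, which works with these lectins, was 392 against 298 CPM and 582 against 367 CPM. Pdia4 was 99.1 against 80.0 CPM and 137 against 90.9 CPM. Pdia6 was 275 against 204 CPM and 415 against 272 CPM. Of the 4 isomerases, P4hb included, all passed 1.5-fold after repetitive doses and P4hb alone did so after the single dose, beside the same 12.3% and 18.8% of all genes. Centred on the median gene, 0 of 4 passed after repetitive doses, and P4hb still did after the single dose. Of all genes, 9.74% and 15.9% were then higher.

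Kdelr3, a receptor that returns ER proteins from the Golgi apparatus, was 154 against 73.6 CPM, a ratio of 2.10 (1.89 to 2.34), and 94.9 against 38.6 CPM, a ratio of 2.46 (2.34 to 2.58). Its relative Kdelr2 was 264 against 188 CPM and 161 against 122 CPM, below 1.5-fold in both. Sec61b, a subunit of the translocation channel, was 639 against 384 CPM and 340.0 against 263 CPM. The COPII coat genes Sec23a and Sec24d were 37.4 against 24.8 CPM and 61.4 against 48.8 CPM for Sec23a, and 57.9 against 36.5 CPM and 122 against 93.8 CPM for Sec24d. Mia3, the collagen cargo receptor, was 58.7 against 45.5 CPM and 111 against 91.3 CPM. Of these 6 genes, 3 were higher after the single dose and 1 after repetitive doses, against 18.8% and 12.3% of all genes, and the others had ratios above 1 that did not reach the limit. Sec23a, at 1.51-fold (1.24 to 1.83) after the single dose, passed without the added CPM and not with it.

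Both transcription factors stayed within 1.5-fold. Creb3l1 (OASIS), a membrane-bound factor known to act on collagen genes, was 109 against 83.1 CPM, a ratio of 1.31 (1.18 to 1.46), and 68.8 against 56.1 CPM, a ratio of 1.23 (1.17 to 1.28). Xbp1, whose messenger is spliced by IRE1, was the third lowest member of the repetitive experiment, with 282 against 262 CPM, a ratio of 1.08 (1.01 to 1.15), and 201 against 196 CPM, a ratio of 1.02 (0.998 to 1.05). Gene counts do not tell the spliced from the unspliced form.

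The collagens themselves, given as levels of the cargo, were higher by more than most members. Col1a1 was 3117 and 859 CPM in single-dose bleomycin and PBS FBs and 2775 and 689 CPM in the repetitive libraries. Col3a1 was 5349.6 and 1431 CPM, and 5024 and 1225 CPM.

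FB transcripts in other cells moved with the repetitive comparison. T cells, which should lack Serpinh1, had 691 CPM of it in the repetitive bleomycin library (193 cells, median 3249 UMIs) and 177 CPM in PBS (130 cells, median 3613.5 UMIs). P4ha3 was 13.6 and 1.15 CPM in these T cells, Hspa5 764 and 387 CPM and Col1a1 1438 and 268 CPM. P4ha3 was detected in 6.74% of the repetitive bleomycin T cells, against 10.1% of the FBs (median 2879 UMIs). All 6 FB markers were detected in the T cells of both libraries, with a sum of 6790.0 and 2078 CPM, against 16597 and 6622 CPM in the FBs. In the single-dose experiment P4ha3 had 0 UMIs in the 27 T cells after bleomycin, where a floor of 3 UMIs is 15.4 CPM. Serpinh1 was 175 CPM there and 302 CPM in the 20 PBS T cells. Plasma cell markers also differed between the repetitive FB groups, with a sum of 505 CPM after bleomycin and 6.34 CPM after PBS. The part of RNA from other cells in these ratios was not tested.

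Other genes of the secretory pathway, from 6 lists, were counted beside the members, first in the single-dose experiment, where 18.8% of all genes were higher and 10.3% lower, and then in the repetitive experiment, where 12.3% and 5.08% were. The UPR sensors and ER-associated degradation genes had 3 of 16 higher and 1 lower with a median log2 ratio of 0.10, between Erlec1 (59.3 against 37.5 CPM) and Herpud1 (62.6 against 117 CPM), and then 2 of 17 higher and 2 lower with a median log2 ratio of 0.19, between Derl3 (1.99 against 0.901 CPM) and Atf6 (92.1 against 172 CPM). Translocon and signal peptidase genes had 3 of 15 higher and 0 lower with a median log2 ratio of 0.32, between Ssr2 (301 against 166 CPM) and Spcs2 (200.4 against 226 CPM), and then 1 of 15 higher and 0 lower with a median log2 ratio of 0.19, between Ssr2 (179 against 105 CPM) and Ssr1 (140.3 against 164 CPM). ER oxidoreductases had 2 of 9 higher and 0 lower with a median log2 ratio of 0.25, between Pdia5 (17.2 against 6.33 CPM) and Ero1lb (3.79 against 4.998 CPM), and then 2 of 9 higher and 0 lower with a median log2 ratio of 0.39, between Pdia5 (11.6 against 5.61 CPM) and Ero1l (26.4 against 30.5 CPM). N-glycosylation genes had 4 of 11 higher and 0 lower with a median log2 ratio of 0.51, between Ostc (305 against 163 CPM) and Rpn2 (219 against 215 CPM), and then 3 of 11 higher and 0 lower with a median log2 ratio of 0.39, between Ostc (222 against 123 CPM) and Dad1 (351 against 353 CPM). Other collagen-modifying enzymes had 6 of 11 higher and 0 lower with a median log2 ratio of 1.06, between Bmp1 (96.9 against 19.2 CPM) and Pcolce (481 against 705 CPM), and then 5 of 12 higher and 0 lower with a median log2 ratio of 0.50, between Bmp1 (79.0 against 19.1 CPM) and Fkbp2 (181 against 192 CPM). Other COPII and cargo receptor genes had 5 of 19 higher and 0 lower with a median log2 ratio of 0.36, between Surf4 (192 against 113 CPM) and Preb (39.8 against 42.3 CPM), and then 1 of 19 higher and 0 lower with a median log2 ratio of 0.18, between Tmed3 (248 against 157 CPM) and Sec24a (46.5 against 59.6 CPM). Among these lists, the other collagen-modifying enzymes had the highest median in both experiments.

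FB clusters were formed without the members. The members' share of UMIs ranged from 0.522% to 0.917% over the 4 single-dose PBS clusters with at least 50 cells and from 0.777% to 0.935% over the 5 bleomycin clusters. It ranged from 0.563% to 0.940% over the 10 repetitive PBS clusters and from 0.661% to 1.14% over the 16 bleomycin clusters. The PBS and bleomycin ranges thus overlap, in part between unlike cells. Single-dose PBS cluster F was named MatrixFB-like (adventitial FBs) from markers. The other single-dose PBS clusters reached 0.635% at most, below the lowest bleomycin cluster (0.777%). In the repetitive experiment the lowest bleomycin cluster, R, was smooth muscle-like, and the next, Q, had 0.870%. Of the repetitive PBS clusters only C and K lay above this, at 0.940% and 0.903%, and both were MatrixFB-like. Single-dose PBS cluster F, with 56 cells and the share of 0.917%, had 8479 CPM of Col1a1, Col1a2 and Col3a1 together, and the other 3 single-dose PBS clusters 1933 to 4741 CPM. Repetitive PBS cluster C, with 174 cells and the share of 0.940%, had 7132 CPM of these collagens. In PBS and bleomycin libraries alike, the share and the collagens did not go together in every pair of clusters. Single-dose PBS cluster A had a share of 0.607% and 1933 CPM, and cluster C 0.522% and 2475 CPM. Repetitive PBS cluster N had a share of 0.833% and 4576 CPM, and cluster H 0.803% and 5790 CPM. Repetitive bleomycin cluster S, with 54 cells and the share of 1.14%, had 9242 CPM of these collagens, and cluster C, with the share of 1.02%, had 19245 CPM. Single-dose bleomycin cluster B had a share of 0.900% and 8082 CPM, and cluster E a share of 0.853% and 14467 CPM. Across the 9 single-dose clusters, P4ha3 spanned 0 to 101 CPM and P3h3 99.5 to 143 CPM, the widest and the narrowest log2 ranges of the members. Across the 26 repetitive clusters, P4ha3 spanned 0 to 70.9 CPM and Dnajc3 289 to 502 CPM, again the widest and the narrowest. Correlations were taken as a description over the PBS and bleomycin clusters of an experiment, which differ in depth and in part share a library. They therefore include the difference between the PBS and bleomycin libraries, and correlation within a single library was not tested. Serpinh1 levels had a Pearson correlation with Col1a1 of 0.89 over 9 single-dose and 0.84 over 26 repetitive clusters. For Calr it was 0.86 and 0.83, and for Fkbp9 -0.88 and -0.40. Other members differed between the experiments in the same measure, with 0.91 and 0.10 for Sec23a, 0.81 and 0.12 for Sec24d, and -0.82 and 0.044 for Dnajb9.

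**Figure D2:**
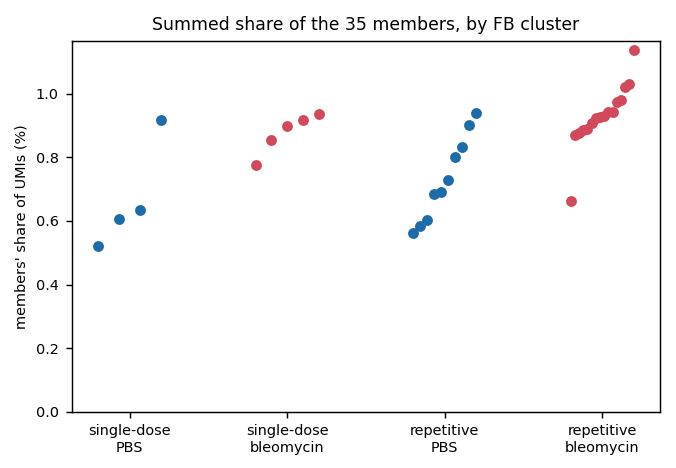
Summed share of UMIs of the 35 members (y axis, percent) in each FB cluster of at least 50 cells, by library (x axis). Each point is 1 cluster, in order of its share within the library, blue for PBS and red for bleomycin. PBS and bleomycin points overlap, and the highest PBS clusters, both MatrixFB-like, reach 0.917% and 0.940%.

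As clusters were mostly of PBS or of bleomycin cells, MatrixFBs, the collagen-rich adventitial FBs that had cells in all 4 lung libraries, were compared on their own. In the single-dose experiment (160 bleomycin and 70 PBS cells) 34 members entered, of which 5 were higher and 2 lower, against 18.4% and 13.4% of all 7194 genes. In the repetitive experiment (1975 and 552 cells) 1 of 35 was higher and 0 lower, against 11.9% and 4.33% of 12564 genes. In the single-dose experiment cluster F held most of the class in both libraries (109 and 56 cells), whereas in the repetitive experiment cluster C held most of it after bleomycin (1275 cells) and cluster K the largest number after PBS (269 of 552 cells). The members' share of UMIs was 0.884% and 0.870%, and 0.997% and 0.863%, so that bleomycin and PBS were closer in these cells than in all FBs. This did not hold alike for other FBs. The repetitive clusters G, H, J and N, not MatrixFB-like, also had at least 50 cells in both libraries. Their shares after bleomycin and PBS were 0.888% and 0.686% (G), 0.980% and 0.803% (H), 0.944% and 0.692% (J), and 0.974% and 0.833% (N). Members were not called within these clusters. P4ha3 had 20 UMIs after the single dose of bleomycin and 0 after PBS. Set over a floor of 3 UMIs in the PBS group this is 2.28-fold, a value that leaves out counting error. After repetitive doses P4ha3 was 6.66 against 1.17 CPM, a ratio of 5.71 (2.33 to 18.2). The other higher members of the single-dose experiment were Mia3 (90.5 against 45.4 CPM, a ratio of 1.99, interval 1.22 to 3.44), Fkbp14 (37.5 against 19.1 CPM), P4hb (362 against 215 CPM, a ratio of 1.68, interval 1.34 to 2.14) and Fkbp10 (62.8 against 40.6 CPM). The intervals of Fkbp14 and Fkbp10 included 1, at 1.96-fold (0.917 to 4.82) and 1.55-fold (0.906 to 2.79). The lower members were Fkbp7 (184 against 296 CPM, a ratio of 0.622, interval 0.498 to 0.781) and Dnajb9 (72.6 against 124 CPM, a ratio of 0.584, interval 0.410 to 0.839), the third lowest was P4ha2 (20.4 against 28.7 CPM, a ratio of 0.711, interval 0.344 to 1.55), which did not pass, and Hyou1, with 14 UMIs, did not enter. Serpinh1 in MatrixFB-like cells was 1690.4 against 1811 CPM, a ratio of 0.934 (0.859 to 1.02), and 1087 against 799 CPM, a ratio of 1.36 (1.31 to 1.41). Hspa5 was 477 against 483 CPM and 1010.4 against 996 CPM, Creb3l1 148 against 150.5 CPM and 73.6 against 71.1 CPM, and Xbp1 281 against 244 CPM and 188 against 189 CPM. P4hb after repetitive doses was 253 against 193 CPM. In the repetitive experiment the ratios next to P4ha3 were those of Calr (817 against 574 CPM), Serpinh1 and P3h3 (129.8 against 96.0 CPM), and the lowest were Fkbp7 (163 against 181 CPM), Creld2 (66.7 against 69.9 CPM) and Ppib (933 against 949 CPM).

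MyoFBs, the contractile matrix-producing FBs of fibrotic lung, were compared with the other FBs of the same bleomycin library. The MyoFB-like cluster held 79 of 779 FBs after the single dose (median 23398 UMIs, against 11254 UMIs in the other FBs) and 576 of 8196 FBs after repetitive doses (median 4084 and 2784.5 UMIs). In the single-dose library 3 members were higher and 1 lower, with 14.3% and 18.2% of 11461 genes. In the repetitive library 2 were higher and 0 lower, with 6.98% and 13.2% of 15894 genes. The members' share of UMIs was 0.919% in MyoFB-like cells and 0.874% in other FBs after the single dose, and 0.923% and 0.942% after repetitive doses. Their median log2 ratio was 0.041 and -0.046, and that of all genes 0.005 and -0.027. The members' median thus lay close to that of all genes. Markers of cycling cells moved with the single-dose comparison: all 7 were detected, with a sum of 584 CPM in the MyoFB-like cells and 130.2 CPM in all FBs of that library, against 7.74 and 13.6 CPM in the repetitive library. All FBs include the MyoFB-like cells, so the sum in the other FBs of the single-dose library was below 130.2 CPM. The leading genes of the single-dose MyoFB-like cluster include the cycling genes Ube2c and Cenpa. The MyoFB-like cells also had deeper profiles, and the part of cycling cells and of depth was not tested. Without the clusters led by genes of other cell types among the other FBs, 2 members were higher and 0 lower in the repetitive library, against 7.5% and 12.2% of all genes.

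Both members past 1.5-fold in both libraries were alpha subunits of prolyl 4-hydroxylase. P4ha3 was 101 against 44.2 CPM, a ratio of 2.29 (1.91 to 2.74), after the single dose and 70.9 against 19.5 CPM, a ratio of 3.63 (3.23 to 4.08), after repetitive doses. P4ha3 was detected in 75.9% of the MyoFB-like cells of the single-dose library and in 30.6% of those of the repetitive library. P4ha2 was 31.4 against 14.2 CPM, a ratio of 2.20 (1.58 to 3.04), and 38.7 against 22.0 CPM, a ratio of 1.76 (1.51 to 2.04). P4ha1 was 60.1 against 48.5 CPM and 91.5 against 93.9 CPM, and did not pass 1.5-fold. The smooth muscle-like cells of the repetitive bleomycin library (110 cells) had 70.9 CPM of P4ha3 from 34 UMIs (interval 49.1 to 99.1 CPM), an interval that overlaps that of the 70.9 CPM (64.1 to 78.3) of the MyoFB-like cells. These cells had a MyoFB marker sum of 10553 CPM, against 14018 CPM in MyoFB-like cells. By cluster, P4ha3 in the single-dose bleomycin library was 101 CPM in the MyoFB-like cluster, 83.9 CPM in cluster E, 20.5 CPM in F, 14.1 CPM in B and 7.56 CPM in H, so P4ha3 was not confined to the MyoFB-like cells.

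After these, Sec23a was 52.2 against 34.0 CPM, a ratio of 1.53 (1.21 to 1.94), Sec61b 866 against 587 CPM, a ratio of 1.48 (1.39 to 1.56), and Kdelr2 347 against 245 CPM, a ratio of 1.42 (1.29 to 1.55), in the single-dose library. In the repetitive library the next highest members were Fkbp10 (97.6 against 66.0 CPM, a ratio of 1.48, interval 1.35 to 1.62), Kdelr3 (128 against 91.3 CPM, a ratio of 1.41, interval 1.30 to 1.52) and P3h1 (60.1 against 42.8 CPM, a ratio of 1.41, interval 1.25 to 1.58). Serpinh1 was nearly level, with 1784 against 1577 CPM, a ratio of 1.13 (1.09 to 1.18), and 1063 against 1004 CPM, a ratio of 1.06 (1.03 to 1.09), and P4hb was 424 against 345 CPM, a ratio of 1.23 (1.13 to 1.33), and 284 against 259 CPM, a ratio of 1.10 (1.04 to 1.16). Creb3l1 was 139 against 102 CPM, a ratio of 1.36 (1.18 to 1.56), and 70.0 against 68.7 CPM, a ratio of 1.02 (0.916 to 1.13).

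Hspa5 was below the other FBs in both libraries by less than 1.5-fold, with 410.3 against 501 CPM, a ratio of 0.820 (0.758 to 0.885), and 890.3 against 1078 CPM, a ratio of 0.826 (0.802 to 0.850). Xbp1 was 201 against 301 CPM, a ratio of 0.669 (0.599 to 0.746), and 153 against 206 CPM, a ratio of 0.743 (0.692 to 0.797), and Fkbp9 was 162 against 249.8 CPM, a ratio of 0.648 (0.572 to 0.731), and 152 against 197 CPM, a ratio of 0.771 (0.718 to 0.827). Fkbp9 passed 1.5-fold in the single-dose library, and Xbp1 was just inside the limit there. The third lowest members were P3h3 in the single-dose library (99.5 against 135 CPM, a ratio of 0.737, interval 0.628 to 0.861) and Sdf2l1 in the repetitive library (62.5 against 80.9 CPM, a ratio of 0.772, interval 0.690 to 0.862). Of the 9 luminal chaperones and cofactors, 0 were higher and 0 lower in either library. Of all genes, 14.3% were higher and 18.2% lower in the single-dose library, and 6.98% and 13.2% in the repetitive library. The ratios of the 9 all lay below 1 in the repetitive library, where those of 8470 of 15894 genes did. In the single-dose library 4 of 9 lay above 1, as did 5781 of 11461 genes. Col1a1 in the same comparison was 4427 against 2815 CPM and 4516 against 2591 CPM, while Col3a1 was 3069 against 5876 CPM and 4452 against 5084 CPM.

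For the other lists in MyoFB-like cells, again single-dose first and beside 14.3% of all genes higher and 18.2% lower, then 6.98% and 13.2%, UPR sensors and degradation genes had 1 of 16 higher and 1 lower with a median log2 ratio of -0.11, between Mbtps2 (13.3 against 8.35 CPM) and Eif2ak3 (4.26 against 10.7 CPM), and then 0 of 17 higher and 0 lower with a median log2 ratio of -0.12, between Creb3l2 (132 against 97.9 CPM) and Herpud1 (123 against 165 CPM). Translocon and signal peptidase genes had 1 of 15 higher and 0 lower with a median log2 ratio of 0.22, between Ssr3 (292 against 189 CPM) and Sec62 (302 against 389 CPM), and then 0 of 15 higher and 0 lower with a median log2 ratio of 0.017, between Spcs1 (182 against 138 CPM) and Sec63 (133 against 160.1 CPM). For ER oxidoreductases these were 2 of 9 higher and 0 lower with a median log2 ratio of 0.16, between Pdia5 (29.8 against 14.2 CPM) and Ero1lb (3.19 against 3.93 CPM), and then 1 of 9 higher and 0 lower with a median log2 ratio of -0.023, between Pdia5 (21.6 against 10.5 CPM) and Ero1lb (8.46 against 12.5 CPM). For N-glycosylation they were 1 of 11 higher and 0 lower with a median log2 ratio of 0.079, between Mogs (20.2 against 12.5 CPM) and Stt3b (80.4 against 104 CPM), and then 0 of 11 higher and 0 lower with a median log2 ratio of -0.013, between Ostc (276 against 216 CPM) and Stt3b (91.3 against 134 CPM). For other collagen-modifying enzymes they were 3 of 11 higher and 2 lower with a median log2 ratio of 0.30, between Bmp1 (153 against 83.8 CPM) and Adamts2 (159 against 326 CPM), and then 2 of 12 higher and 2 lower with a median log2 ratio of 0.24, between Fkbp11 (64.5 against 38.2 CPM) and Adamts2 (219 against 467 CPM). For other COPII and cargo receptors they were 0 of 19 higher and 0 lower with a median log2 ratio of 0.15, between Preb (54.8 against 36.3 CPM) and Sec16a (25.01 against 27.7 CPM), and then 0 of 19 higher and 0 lower with a median log2 ratio of 0.083, between Sec13 (74.2 against 61.7 CPM) and Sec24a (40.0 against 47.2 CPM).

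**Figure D3:**
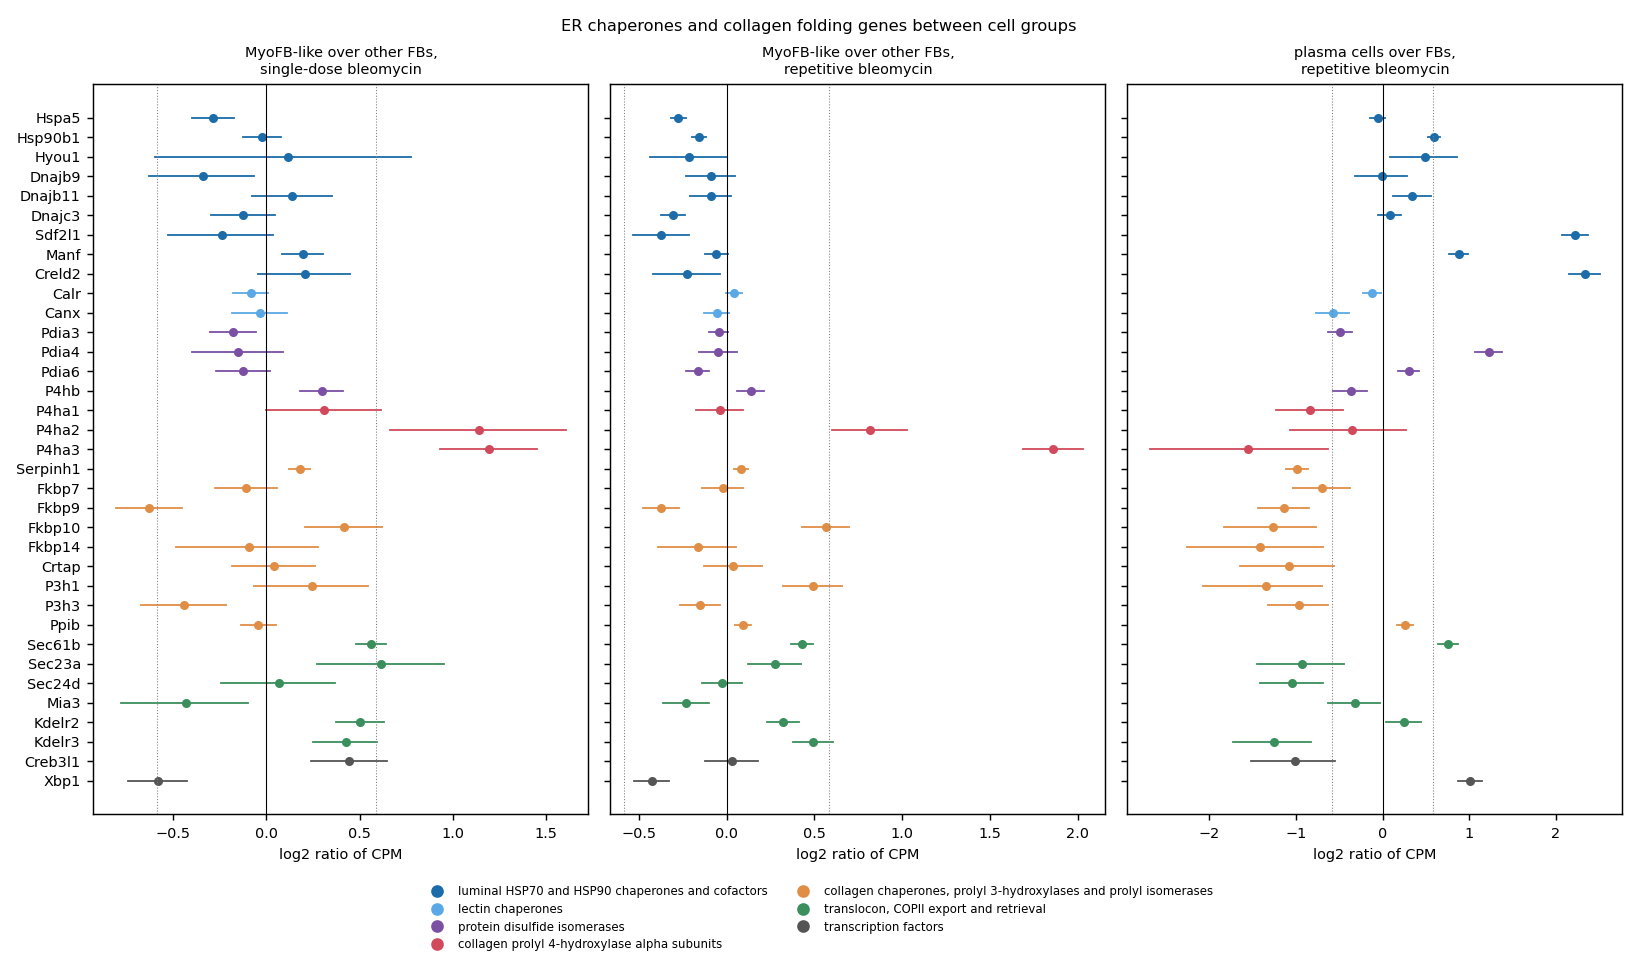
Log2 ratio of CPM (x axis) of the 35 members (y axis, coloured by role) for MyoFB-like cells over other FBs in the single-dose (left) and repetitive (middle) bleomycin libraries, and for plasma cells over FBs in the repetitive bleomycin library (right). Points are ratios without an added CPM, lines 95% counting intervals and dotted lines 1.5-fold. P4ha3 is the highest member in the first 2 panels and the lowest in the right one, where Creld2 and Sdf2l1 are highest.

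Plasma cells, which secrete antibody and no collagen, were compared with FBs of the same library. The repetitive bleomycin library held 230 of them (median 2053.5 UMIs), with Igkc at 170379 CPM and the plasma cell markers at 313014 CPM in sum. The median log2 ratio of all genes was -0.66, and 55.3% of 15976 genes were lower and 5.68% higher. Of the members, 7 were higher and 14 lower. Once ratios were centred on the median gene, 15 members were higher and 3 lower, against 18.3% and 16.8% of all genes. Without the FB clusters led by genes of other cell types, 7 were higher and 14 lower, against 5.74% and 55.6%. The members took 1.02% of UMIs in plasma cells and 0.940% in FBs.

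The higher members were general ER genes. Creld2 was 262 against 51.9 CPM, a ratio of 5.05 (4.46 to 5.70), Sdf2l1 369.9 against 79.1 CPM, a ratio of 4.67 (4.21 to 5.18), and Pdia4 321 against 137 CPM, a ratio of 2.34 (2.09 to 2.60). Xbp1, which plasma cell differentiation is known to require, was 404 against 201 CPM, a ratio of 2.01 (1.83 to 2.22), and Manf 700.2 against 381 CPM, a ratio of 1.84 (1.71 to 1.98). Sec61b (575 against 340.0 CPM) and Hsp90b1 (1607 against 1061 CPM) completed the 7. The interval of Hspa5 included 1, with 1018 against 1060.0 CPM, a ratio of 0.961 (0.905 to 1.02). P4hb was 202 against 261 CPM, a ratio of 0.774 (0.674 to 0.885). Of the 9 luminal chaperones and cofactors, 4 were higher and 0 lower, where 5.68% and 55.3% of all genes were, and all 9 were higher once ratios were centred on the median gene, where 18.3% of all genes were.

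Of the 12 collagen-directed members, 10 were lower, where 55.3% of all genes were, and Ppib (812 against 678 CPM) and P4ha2 (18.5 against 23.6 CPM) were within 1.5-fold. Centred on the median gene, 3 of the 12 (P4ha3, Fkbp14 and P3h1) were lower, against 16.8% of all genes, and Ppib was higher. P4ha3 was 8.30 against 24.4 CPM, a ratio of 0.340 (0.155 to 0.647), from 9 UMIs. Fkbp14 was 13.8 against 37.0 CPM, a ratio of 0.374 (0.209 to 0.619), and P3h1 17.5 against 44.4 CPM, a ratio of 0.394 (0.237 to 0.617). Serpinh1 was 509 against 1009.7 CPM, a ratio of 0.504 (0.463 to 0.548). The remaining lower genes of this group were Fkbp7, Fkbp9, Fkbp10, Crtap, P3h3 and P4ha1, between 27.7 CPM (Crtap) and 87.6 CPM (Fkbp9) in plasma cells. Creb3l1 was 34.1 against 68.8 CPM, a ratio of 0.496 (0.349 to 0.685), and the export genes Sec23a (32.3 against 61.4 CPM), Sec24d (59.0 against 122 CPM) and Kdelr3 (39.7 against 94.9 CPM) were lower too. T cells of the same library, which should lack both genes, had 691 CPM (648 to 736) of Serpinh1, against 509 CPM (468 to 554) in plasma cells. They had 13.6 CPM (8.19 to 21.3) of P4ha3 from 19 UMIs, against 8.30 CPM (3.80 to 15.8) in plasma cells, so that the intervals of P4ha3 overlapped. All 6 FB markers were detected in the plasma cells, at 9997 CPM in sum, with Col1a1 at 1527 CPM, and their part in these ratios was not tested. Creld2 in T cells was 43.0 CPM, near the FB level and below the plasma cell level.

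Among the other lists, in plasma cells against FBs and beside 5.68% of all genes higher and 55.3% lower, UPR sensors and degradation genes had 5 of 17 higher and 2 lower with a median log2 ratio of 0.024, between Derl3 (161 against 1.99 CPM) and Mbtps2 (5.54 against 19.1 CPM). Translocon and signal peptidase genes had 5 of 15 higher and 3 lower with a median log2 ratio of 0.12, between Sec11c (772 against 86.6 CPM) and Sec63 (90.4 against 157 CPM). Oxidoreductases of the ER had 3 of 9 higher and 3 lower with a median log2 ratio of 0.26, between Txndc5 (787 against 135 CPM) and Pdia5 (5.54 against 11.6 CPM). N-glycosylation genes had 0 of 11 higher and 1 lower with a median log2 ratio of -0.28, between Ddost (229 against 163 CPM) and Uggt1 (30.4 against 52.8 CPM). The collagen-modifying list had 3 of 12 higher and 8 lower with a median log2 ratio of -1.04, between Fkbp11 (129 against 40.7 CPM) and Plod2 (33.2 against 115 CPM). The COPII and cargo receptor list had 0 of 19 higher and 4 lower with a median log2 ratio of -0.22, between Lman2 (113 against 89.0 CPM) and Sec24b (18.5 against 51.3 CPM).

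**Figure D4:**
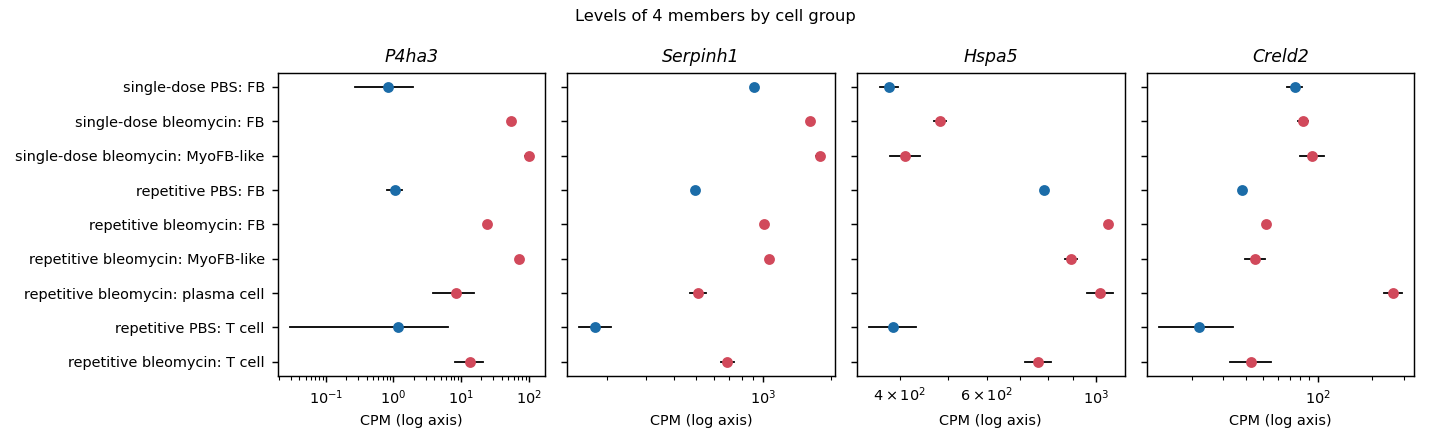
CPM (x axes, log scale, each with its own range) of P4ha3, Serpinh1, Hspa5 and Creld2 in 9 cell groups of the lung libraries (y axis). Points are summed levels, lines 95% Poisson intervals, blue for PBS and red for bleomycin. P4ha3 spans near 1 CPM in PBS FBs to 101 CPM in single-dose MyoFB-like cells, and Creld2 is highest in plasma cells, at 262 CPM.

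To ask whether the FBs carried a difference into culture, organoid cells were compared between fibrogenic and normal FB support. In the FBs (4749 and 2027 cells, median 3896 and 50658 UMIs) 0 of 35 members were higher and 0 lower, where 1.44% and 2.42% of 17920 genes were. Without the clusters led by epithelial genes, but with cluster T kept, again 0 were higher and 0 lower, against 1.41% and 2.44% of all genes. The members' median log2 ratio was 0.18 and that of all genes -0.0088. Of the 35 members 28 were above 0, as were 8571 of 17920 genes. Their share of UMIs was 1.07% and 0.939%. P4ha2 was the highest member, with 161 against 111 CPM, a ratio of 1.45 (1.42 to 1.48), followed by Sdf2l1 (72.1 against 54.3 CPM, a ratio of 1.33, interval 1.29 to 1.37), Creb3l1 (55.6 against 42.1 CPM, a ratio of 1.32, interval 1.27 to 1.37), P4ha1 (307 against 236 CPM, a ratio of 1.30, interval 1.28 to 1.32) and Pdia4 (131 against 103 CPM, a ratio of 1.28, interval 1.25 to 1.31). Hspa5 was 861 against 698 CPM, a ratio of 1.23 (1.22 to 1.25), P4hb 419 against 355 CPM, a ratio of 1.18 (1.16 to 1.19), and Serpinh1 1195 against 1033 CPM, a ratio of 1.16 (1.15 to 1.16). P4ha3 was the lowest, with 6.38 against 9.88 CPM, a ratio of 0.646 (0.592 to 0.705). This passes 1.5-fold without the added CPM and not with it. Xbp1 (184 against 209 CPM, a ratio of 0.882, interval 0.867 to 0.897) and P3h1 (53.6 against 57.5 CPM, a ratio of 0.934, interval 0.903 to 0.965) were next. Epithelial markers moved with this comparison: all 8 were detected in both FB groups, with a sum of 880.3 CPM in fibrogenic and 578 CPM in normal FBs, and Sftpc, a surfactant gene of AEC2s, was 761 and 491 CPM. Their part, and that of the unequal depth, was not tested.

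In organoid epithelium (2308 and 1998 cells) again 0 members were higher and 0 lower, with 1.82% and 0.682% of 16717 genes. These groups include 3 clusters led by FB genes, with 208 of the fibrogenic and 33 of the normal cells. Without them (2100 and 1965 cells) 1 member, P3h3, was higher and 0 lower, with 1.85% and 0.659% of all genes. The members took 0.467% and 0.494% of UMIs, less than in organoid FBs. The highest ratios belonged to collagen-directed genes, at low level except for Serpinh1: P3h3 (3.75 against 2.58 CPM, a ratio of 1.46, interval 1.20 to 1.76), Fkbp10 (10.1 against 7.90 CPM, a ratio of 1.28, interval 1.14 to 1.43), Fkbp9 (21.0 against 17.3 CPM, a ratio of 1.22, interval 1.13 to 1.31), Serpinh1 (160.5 against 137 CPM, a ratio of 1.17, interval 1.14 to 1.20) and Fkbp7 (10.9 against 9.46 CPM, a ratio of 1.16, interval 1.04 to 1.28). Col1a1 moved with them, at 94.7 and 68.7 CPM, and the sum of the 6 FB markers, all detected in both groups, was 273 and 221 CPM. The part of FB RNA in these ratios was not tested. The lowest were Sec24d (29.9 against 37.2 CPM, a ratio of 0.805, interval 0.759 to 0.853), Sec61b (524 against 637 CPM, a ratio of 0.822, interval 0.811 to 0.834) and P4hb (248 against 299 CPM, a ratio of 0.829, interval 0.812 to 0.846). Hspa5 was 397 against 405 CPM, a ratio of 0.982 (0.966 to 0.998), Creb3l1 12.3 against 12.0 CPM, a ratio of 1.03 (0.933 to 1.13), and Xbp1 68.3 against 81.7 CPM, a ratio of 0.836 (0.805 to 0.869). Of the cargo, Sftpc was 60255 and 67636 CPM and Sftpa1 997 and 1794 CPM.

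**Figure D5:**
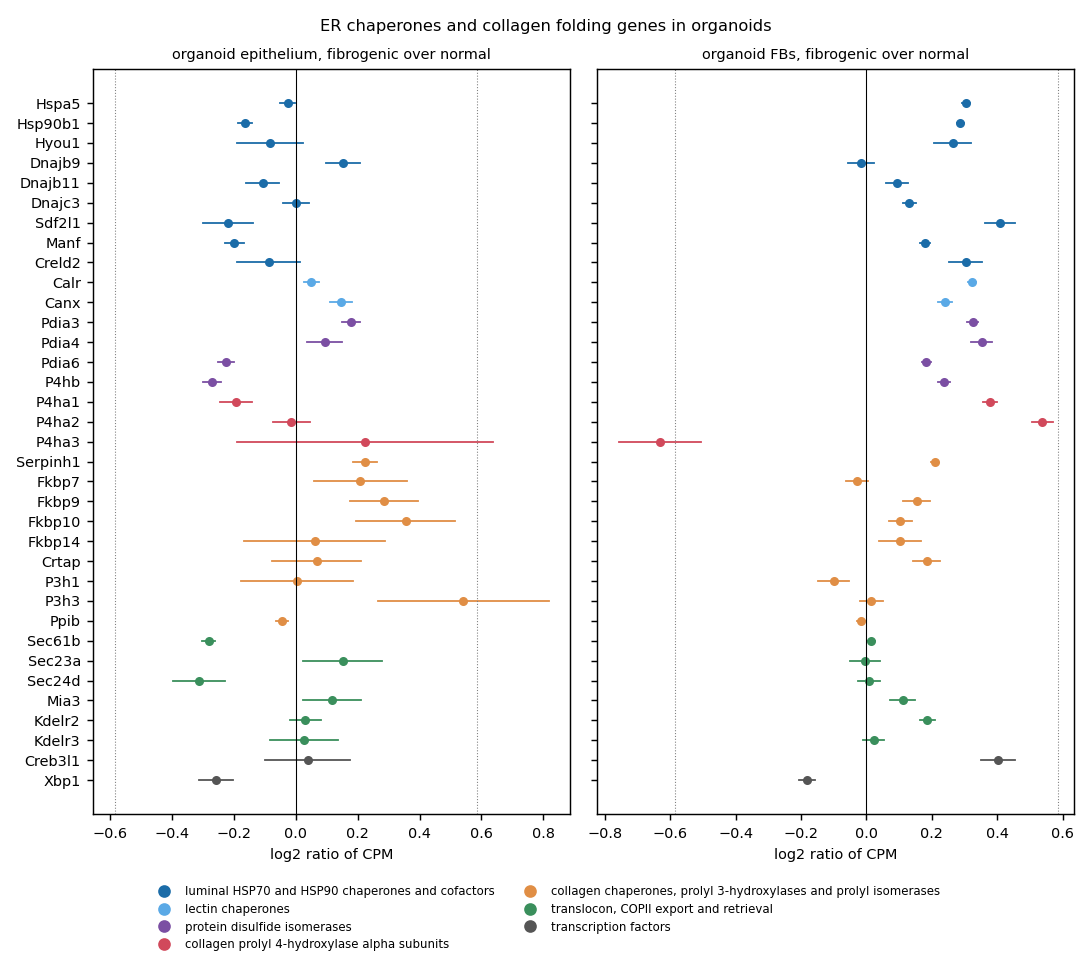
Log2 ratio of CPM (x axis, with its own range in each panel) of the 35 members (y axis, coloured by role), fibrogenic over normal, in organoid epithelium (left) and organoid FBs (right). Points are ratios without an added CPM, lines 95% counting intervals and dotted lines 1.5-fold. P4ha3 in FBs is the 1 point beyond a dotted line.

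Other lists in the organoids are given for FBs (1.44% of all genes higher and 2.42% lower) and then for epithelium (1.82% and 0.682%). UPR sensors and degradation genes had 0 of 17 higher and 0 lower with a median log2 ratio of 0.074, between Edem1 (37.0 against 32.3 CPM) and Creb3l2 (102 against 119.6 CPM), and then 0 of 17 higher and 0 lower with a median log2 ratio of 0.034, between Eif2ak3 (16.7 against 13.4 CPM) and Sel1l (88.5 against 95.0 CPM). Genes of the translocon and signal peptidase had 0 of 15 higher and 0 lower with a median log2 ratio of -0.019, between Sec61g (1073 against 937 CPM) and Ssr2 (266 against 292 CPM), and then 0 of 15 higher and 0 lower with a median log2 ratio of -0.092, between Spcs3 (60.1 against 51.0 CPM) and Sec11c (189.8 against 229.6 CPM). The ER oxidoreductase list had 0 of 9 higher and 0 lower with a median log2 ratio of 0.081, between Ero1l (337 against 230.1 CPM) and Prdx4 (171 against 186 CPM), and then 0 of 9 higher and 0 lower with a median log2 ratio of -0.07, between Txndc12 (36.5 against 35.3 CPM) and Prdx4 (282 against 363 CPM). The N-glycosylation list had 0 of 11 higher and 0 lower with a median log2 ratio of 0.095, between Prkcsh (114 against 98.7 CPM) and Dad1 (418 against 461 CPM), and then 0 of 11 higher and 0 lower with a median log2 ratio of -0.074, between Ganab (47.6 against 45.5 CPM) and Ostc (163 against 192 CPM). Collagen-modifying enzymes outside the members had 1 of 12 higher and 0 lower with a median log2 ratio of 0.0037, between Plod2 (279 against 184 CPM) and Ppic (221 against 307 CPM), and then 1 of 12 higher and 0 lower with a median log2 ratio of 0.066, between Adamts2 (2.96 against 1.62 CPM) and Fkbp11 (56.0 against 72.2 CPM). COPII genes and cargo receptors outside the members had 0 of 19 higher and 0 lower with a median log2 ratio of -0.0026, between Surf4 (190.1 against 174 CPM) and Sec24b (32.0 against 36.9 CPM), and then 0 of 19 higher and 0 lower with a median log2 ratio of -0.047, between Sar1b (107 against 101 CPM) and Lman1 (103 against 118 CPM).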

How the data were processed

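The authors sequenced droplet 3′ single-cell libraries, counted UMIs with Cell Ranger 3.0.1 against mm10 and used Seurat, per the labels and methods. The deposited values are raw UMI counts per gene and cell barcode, 1 table per library, each pooled from 3 mice, and they were used as deposited. Doublets were not called, and their removal is not stated for these tables.

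Both libraries of an experiment were clustered together (2000 variable genes, 30 principal components, 20 neighbours, Leiden resolution 1), leaving out the members, the other pathway genes, the markers and mitochondrial genes, and clusters were named from marker lists. Barcodes whose mitochondrial or erythrocyte share was over 3 scaled median absolute deviations above their cluster's median, and clusters averaging above 25% mitochondrial or 0.5% erythrocyte counts, were removed. FBs and organoid epithelium were then clustered again by the same steps. UMIs were summed per group and compared as the ratio of CPM + 1 (called at 1.5-fold, 20 UMIs over both groups). Levels have exact Poisson and ratios exact conditional binomial 95% intervals, for counting error only. There is 1 library per condition, so no test was run.

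In each comparison the 5 highest and 3 lowest members, Hspa5, P4hb, Serpinh1, Creb3l1 and Xbp1 are named, and every member at least once. Members and lists were chosen with earlier results of these data known. The scripts were tested on simulated data. Python 3.11.15, numpy 2.4.6, pandas 2.3.3, scipy 1.17.1, scikit-learn 1.9.0, igraph 0.11.9 and matplotlib 3.10.9 were used. Alternatives were a 2-fold limit, centring on the median gene, other filters, cell assignment by markers, an added 10 CPM, resolutions 0.5 and 2, and means over single cells.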

Additional observations from a re-analysis of the deposited data

How the results depend on the processing

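In each comparison the members higher, lower and past the limit in either direction were recounted under each alternative. These counts overlap, and a count of 0 that remained 0 was taken as staying. Of these counts, 219 stayed within 1.5 times and 33 moved. Of the medians, 75 stayed close, 4 moved and 5 changed sign. At a 2-fold limit 6 members were higher after the single dose (9.4% of all genes at that limit), 5 after repetitive doses (5.41%), 2 in single-dose MyoFB-like cells (6.13%, with 0 lower against 9.55%) and 1 in repetitive MyoFB-like cells (3.45%). In plasma cells 12 members passed it, 4 higher and 8 lower, against 3.36% and 28.0% of all genes. Centred on the median gene, 1 member was lower after the single dose (12.9% of all genes), 9 were past the limit after repetitive doses (9.74% higher and 6.68% lower), and in plasma cells 15 were higher and 3 lower (18.3% and 16.8%) with a median log2 ratio of 0.32, opposite in sign to -0.34. The median in organoid epithelium became -0.014. At resolution 2, 5 members were higher in single-dose MyoFB-like cells (12.1% of all genes). With means over single cells, 3 members were lower in single-dose MyoFB-like cells (19.0% of all genes) and 1 was higher in repetitive MyoFB-like cells (8.62%). In plasma cells 11 were then past the limit, 4 higher and 7 lower, against 8.71% and 43.0% of all genes. In organoid epithelium 3 were higher (6.28%), and in organoid FBs 2 were past it, 1 higher and 1 lower (5.88% and 7.62%). Assigning cells by markers left 0 lower members in single-dose MyoFB-like cells (12.1% of all genes) and a median of 0.0079 in repetitive ones. Without a filter on cells 6 were higher in repetitive MyoFB-like cells (8.7%), with a median of 0.039. Leaving out clusters led by genes of other cell types, an alternative chosen after seeing the data, gave 1 higher member (1.85% of all genes) and a median of -0.0035 in organoid epithelium. The cause of these changes was not tested. No paired analysis was possible because each condition has 1 library. For the same reason no replicate could be left out.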
